A study of Mus musculus with 4 samples.

Results

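The 9 genes described here encode transcription factors that set and keep the identity of hepatocytes: Foxa1, Foxa2, Foxa3, Hnf4a, Nr1h4, Nr5a2, Cebpa, Onecut1 and Prox1. They were taken from the arrays by gene name, ignoring letter case, and all 9 were found among the 18700 gene names that the probes carry. What was measured is the amount of their DNA, not their expression. Liver tumours of 4 mice lacking both copies of Fah and of Trp53 (Fah-/- Trp53-/-; mice 239, 240, 244 and 252, labelled male) were each compared with the same pool of liver DNA from 3 male littermates that carried both genes (Fah+/+ Trp53+/+). Fah codes for the enzyme that completes the breakdown of tyrosine, and Trp53 for the tumour suppressor p53. NTBC keeps mice without Fah alive by stopping the pathway upstream of the missing enzyme. Per the labels, the drinking water held 7.5 mg/L NTBC as a rule, and this was cut to 2.5% during 6 months. Whether the littermates of the pool had the reduced dose, and the ages of the mice, are not given in the labels. Each tumour was 1 tissue sample of 1 mouse, so the 4 arrays are 4 animals, and the pool counts as 1 control sample without a spread of its own.

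The assay was comparative genomic hybridisation on a 2-colour Agilent array, in which tumour DNA labelled with Cy5 and pool DNA labelled with Cy3 bind to the same probes of 60 bases. Each value below is log2 of tumour over pool signal, centred on the median of chromosomes 1 to 19 of the array, so that 0 is the typical level of that tumour. In a pure sample of a diploid genome, 1 extra copy would give 0.58 and 1 missing copy would give -1. In bulk tissue a smaller share of cells with a change and a smaller change per cell cannot be told apart. The 9 genes were covered by 32 probes of the 170305 on the arrays. All 32 were well above background in both colours, none was saturated, and 4 genes had only 1 probe. To read the region as well as the gene itself, each gene was also read from the 100 to 190 probes that lie within 1 Mb of it and carry other names or none, called its surrounding probes.

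The arrays differed in ways that touch the results. The SD between neighbouring probes was estimated robustly, from the median absolute deviation of their differences, which gives outlying probes little weight. It was 0.25 in tumour 239, 0.31 in tumour 240, 0.34 in tumour 244 and 0.35 in tumour 252. Probes of the X chromosome had a median of 0.73 in tumour 252, and those of the Y chromosome -2.43, so that this tumour goes against its male label when set against a male pool. In the other 3 tumours the X medians lay between -0.30 and -0.09, and the Y median of tumour 244 was -1.20. The counts of genes called and of values past 0.2, and the call on the Foxa1 region, are therefore also given without tumour 252. Other values below include it unless stated. With genomic DNA the tissue label cannot be checked against marker expression.

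Hepatocyte identity depends on a network in which these factors bind one another's genes. FOXA proteins are pioneer factors that open chromatin at liver enhancers. HNF4A, FXR (the product of Nr1h4) and LRH-1 (the product of Nr5a2) are nuclear receptors that control lipid, glucose and bile acid genes. CEBPA drives metabolic genes and restrains proliferation, HNF6 (the product of Onecut1) acts in liver and biliary development, and PROX1 is needed for hepatoblast migration and liver growth.

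Of the 36 combinations of a gene and a tumour, 8 had surrounding probes past 0.2 in either direction, against a background of 17.7% of combinations over all genes (22.2% of the 36). Of the 36, 6 were at -0.2 or less, against a background of 9.60% of combinations over all genes. At 0.2 or more there were 2 of the 36, against 8.14%. Foxa1 accounted for 4 of the 6 low values, 1 in each tumour. The other 4 values past 0.2 all came from tumour 244, in which Onecut1 and Nr1h4 were low and Prox1 and Nr5a2 high. The 2 high values depended on how the arrays were centred. With centring on the most frequent level of a running median, chosen after seeing the data, 0 values were high and 8 low. In tumour 244, 19.3% of all genes lay at 0.2 or more and 29.3% at -0.2 or less, more than in any other tumour of the 4. Without tumour 244 there were 3 values past 0.2, all at Foxa1, and without tumour 252 there were 7. Over all genes, 4.09%, 1.65% and 7.51% lay at 0.2 or more in tumours 239, 240 and 252. The shares at -0.2 or less were 4.41%, 1.88% and 2.80%.

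**Figure D1:**
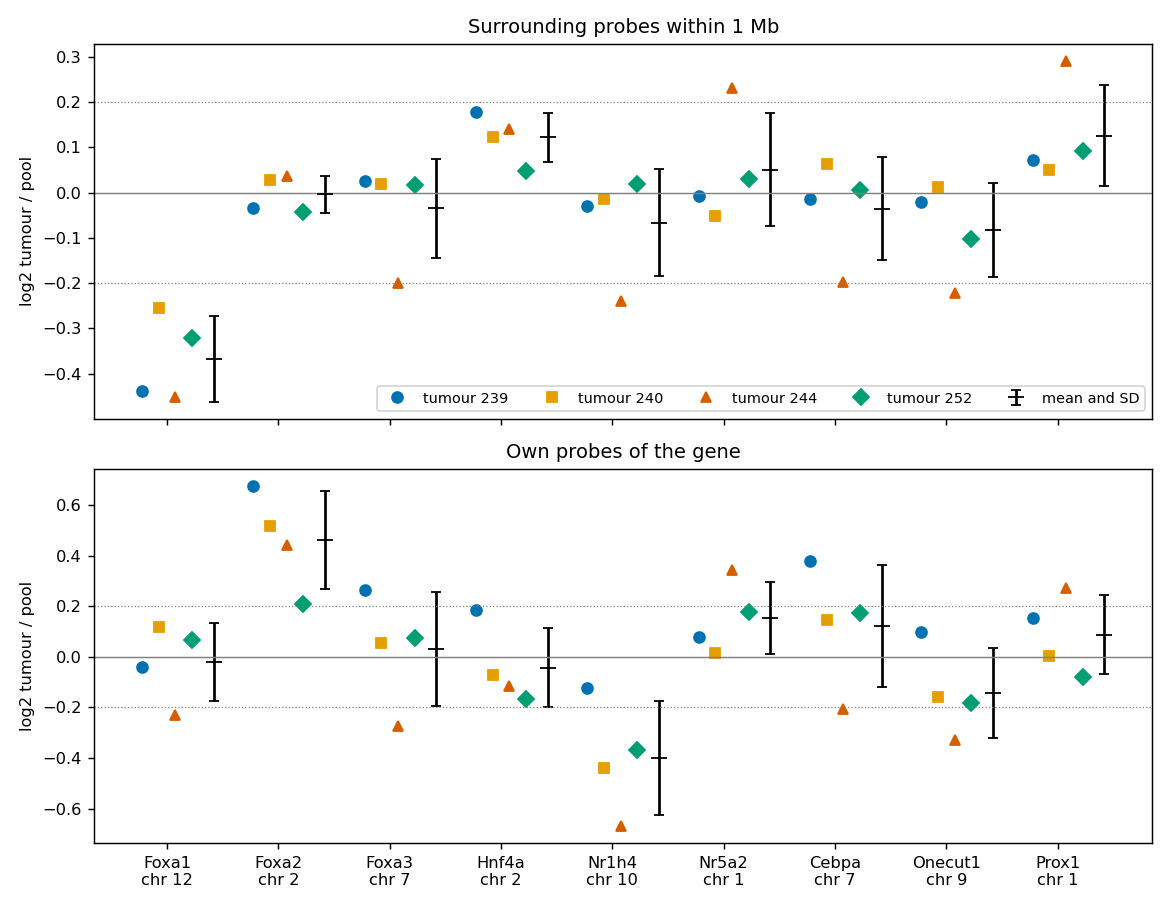
Log2 ratio of tumour over pool (axis) for the 9 genes, in each of the 4 tumours (colours), for own probes and for surrounding probes. Foxa1 is the gene whose surrounding probes lie below -0.2 in all 4 tumours, while its own probe lies between -0.23 and 0.12. At Foxa2 the own probe lies between 0.21 and 0.68 and the surrounding probes between -0.04 and 0.04. In both genes the own probe lies above its region.

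The region of Foxa1 was low in every tumour. The 141 surrounding probes, on chromosome 12, gave averages of -0.44, -0.26, -0.45 and -0.32 in tumours 239, 240, 244 and 252. Their mean was -0.37 ± 0.09 (SD, n = 4), and ± stands for the SD over the 4 tumours throughout. Over all genes, levels of -0.2 or less were found for 4.41%, 1.88%, 29.3% and 2.80% in these tumours. No tumour came near 0, and tumours 239 and 244 were the lowest. In a limma test of the 4 tumours against 0, fitted over all 18699 genes with Benjamini-Hochberg adjustment, the adjusted p was 0.0217. Foxa1 was the 1 gene of the 9 called on its surrounding probes, against a background of 9.16% of all genes, with 3.74% called below 0 and 5.41% above. The call did not hold without tumour 239 (-0.34, adjusted p = 0.148) or without tumour 252 (-0.38, adjusted p = 0.0674), 2 limma fits in which no gene on the arrays was called, although 3574 and 3998 genes had an unadjusted p under 0.05. The low level was not limited to the neighbourhood of the gene. All 7146 probes of chromosome 12 averaged -0.40, -0.21, -0.39 and -0.24 in the same order, a mean of -0.31 ± 0.10. Probes within 100 kb of Foxa1 averaged -0.42 ± 0.12.

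The 1 probe that carries the name of Foxa1 behaved unlike its region. It is printed because the reading of the gene by name rests on it alone, in lower case as no base is singled out; strands are not given in the files, and coordinates are those of mouse build mm9.
Foxa1 probe, chr12:58645586-58645645: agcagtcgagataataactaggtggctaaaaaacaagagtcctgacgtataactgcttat
Its log2 ratios were -0.04, 0.12, -0.23 and 0.07 in tumours 239, 240, 244 and 252, a mean of -0.02 ± 0.15 with an adjusted p of 0.845 in the limma fit. Tumour signals were 3113, 3328, 2868 and 3179, against pool signals of 3155, 3018, 3283 and 3054 on the same arrays. The probe stood above its surrounding probes by 0.40, 0.37, 0.22 and 0.39, a difference of 0.35 ± 0.08 (limma adjusted p = 0.00225). Tumour 244 had the smallest difference, and all 4 were positive. Offsets of a probe that repeat on every array are not part of the spread in this test, here and for the genes below. Of all genes with 1 probe, 55.8% were called on own minus surrounding probes. The size of the difference depended on the background and trend correction: it was 0.72 with normexp, where the own probe itself averaged 0.33 (limma adjusted p = 0.00918), and 0.54 with lowess on intensity. The nearest gene with at least 3 probes at higher coordinates, 4921506M07RIK, had a mean of -0.51 ± 0.15 (limma adjusted p = 0.00282), and the nearest at lower coordinates, ENSMUST00000123498, a mean of -0.15 ± 0.10.

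Foxa2, the FOXA factor of endoderm formation, lies on chromosome 2. Its own probe stood above its region, as at Foxa1, but here the region was near 0 and the own probe high. Its 1 probe (chr2:147868597-147868656) gave 0.68, 0.52, 0.44 and 0.21 in tumours 239, 240, 244 and 252, a mean of 0.46 ± 0.19 with a limma adjusted p of 0.00612. All 4 tumours were above 0, with tumour 239 highest and tumour 252 lowest. The tumour signals of 970, 928, 951 and 866 faced pool signals of 598, 637, 683 and 755, so that the tumour was the brighter channel on every array. The 100 surrounding probes were at -0.03, 0.03, 0.04 and -0.04 (limma adjusted p = 0.950), on both sides of 0. The own probe thus differed from its region by 0.46 ± 0.19 (limma adjusted p = 0.00476), a value carried by a single 60-base stretch. As for Foxa1, an offset of that probe shared by the arrays is not part of the spread. The background among genes with 1 probe was again 55.8%. The nearest gene at lower coordinates, ENSMUST00000136555, was at -0.24 ± 0.09 on 5 probes (limma adjusted p = 0.0220), and Napb at higher coordinates was at 0.11 ± 0.06 (limma adjusted p = 0.155).

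Foxa3, a FOXA factor of the adult liver and gut, had no value past 0.2 on its 172 surrounding probes on chromosome 7. They averaged 0.03, 0.02, -0.20 and 0.02 in tumours 239, 240, 244 and 252, with tumour 244 set apart at -0.1996, just inside the limit of 0.2. The mean was -0.03 ± 0.11 (limma adjusted p = 0.694). Its 1 probe (chr7:19599062-19599121) gave 0.27, 0.05, -0.28 and 0.08, again lowest in tumour 244. Of its neighbours, Sympk was called at -0.20 ± 0.10 on 4 probes (limma adjusted p = 0.0431), and Nova2 was at -0.11 ± 0.17 (limma adjusted p = 0.295).

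Nr1h4 encodes FXR, the bile acid receptor of hepatocytes, and its 7 probes, on chromosome 10, had averages of -0.12, -0.44, -0.67 and -0.37 in tumours 239, 240, 244 and 252. The mean was -0.40 ± 0.23 (limma adjusted p = 0.0136). All 4 values were below 0, but 1 of the 7 probes set the average. The probe at chr10:88969057-88969116 read -1.85, -2.33, -2.68 and -2.18, and the other 6 ranged from -0.59 to 0.39. The low probe is printed with the probes on its 2 sides, so that the stretch that read low can be seen beside stretches that did not.
Nr1h4 probe 4, chr10:88950833-88950892: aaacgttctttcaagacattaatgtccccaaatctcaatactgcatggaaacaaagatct
Nr1h4 probe 5, chr10:88969057-88969116: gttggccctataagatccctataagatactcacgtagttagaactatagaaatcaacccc
Nr1h4 probe 6, chr10:88976555-88976614: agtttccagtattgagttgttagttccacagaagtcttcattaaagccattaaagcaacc
At probe 5 the tumour signals were 1177, 815, 622 and 911, against pool signals of 4170, 4041, 3898 and 4154. The pool signal was nearly equal on the 4 arrays, and the tumour signal was far below it on each. Probe 4 read 0.15, 0.16, -0.16 and -0.08, and probe 6 read 0.28, 0.03, -0.29 and -0.10.

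Without probe 5, the remaining 6 probes of Nr1h4 averaged 0.17, -0.12, -0.34 and -0.07, a mean of -0.09 ± 0.21, on both sides of 0. With the median over the 7 probes in place of the mean, the value was -0.11 and the limma adjusted p 0.355. The 190 surrounding probes were at -0.03, -0.01, -0.24 and 0.02, so that only tumour 244 was past 0.2. The difference of own and surrounding probes was -0.33 ± 0.16 (limma adjusted p = 0.00875) with probe 5 and -0.02 ± 0.15 without it. With normexp it was -0.16 (adjusted p = 0.0617), and with the median over probes -0.07 (adjusted p = 0.429). Among the 161417 autosomal probes with a value in every tumour, 0.635% read -1 or lower in all 4, and probe 5 of Nr1h4 was the 1 such probe of the 32. The call on own probes did not hold without tumour 240 (-0.39, adjusted p = 0.0636). The neighbours Gas2l3 (0.12 ± 0.11) and Slc17a8 (-0.15 ± 0.10) were not called.

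Hnf4a encodes the nuclear receptor that is required for the differentiated state of hepatocytes. Its 188 surrounding probes, on chromosome 2, had averages of 0.18, 0.12, 0.14 and 0.05 in tumours 239, 240, 244 and 252, a mean of 0.12 ± 0.05 (limma adjusted p = 0.0880). All 4 tumours were above 0 and none reached 0.2. Its 3 probes (chr2:163378751-163393096) averaged 0.18, -0.07, -0.12 and -0.17, with tumour 239 alone above 0. Own probes differed from the region by 0.01, -0.19, -0.26 and -0.21, a mean of -0.16 ± 0.12 (limma adjusted p = 0.0396). That difference turned to 0.19 when the background was corrected by normexp instead of by the scanner software, and was then called above 0. With lowess on intensity it was -0.05 (adjusted p = 0.383). The call below 0 also did not hold with the median over probes (adjusted p = 0.135) or with surrounding probes within 250 kb (adjusted p = 0.0564). Nor did it hold without tumour 240, 244 or 252 (adjusted p between 0.128 and 0.144). The neighbour at lower coordinates, Hnf4aos, which is named as the antisense partner of Hnf4a, was at -0.17 ± 0.21, and Serinc3 on the other side was at -0.04 ± 0.08.

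Nr5a2 encodes LRH-1, a receptor that acts on bile acid synthesis genes together with its co-regulators. Its 12 probes, on chromosome 1, had averages of 0.08, 0.01, 0.34 and 0.18 in tumours 239, 240, 244 and 252, a mean of 0.15 ± 0.14 (limma adjusted p = 0.128). Tumour 244 was the highest, as it was on the 122 surrounding probes, which averaged -0.01, -0.05, 0.23 and 0.03. The difference of own and surrounding probes was 0.10 ± 0.03 (limma adjusted p = 0.0395), positive in all 4 tumours. Its adjusted p was 0.0850, 0.135 and 0.143 without tumours 240, 244 and 252, 0.0786 with the median over probes and 0.0501 with surrounding probes within 250 kb. With normexp it was 0.16 (adjusted p = 0.00600). The neighbours Kif14 (0.21 ± 0.23) and Ptprc (-0.07 ± 0.11) were not called. The 2 of the 12 probes with the highest and the lowest mean over the 4 tumours are printed.
Nr5a2 probe 6, chr1:138794661-138794720: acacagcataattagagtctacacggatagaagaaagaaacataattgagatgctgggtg
Nr5a2 probe 11, chr1:138843357-138843416: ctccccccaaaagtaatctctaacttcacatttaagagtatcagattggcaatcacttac
Probe 6 read 0.51, 0.49, 0.74 and 0.76, and probe 11 read -0.64, -1.07, -0.57 and -0.78. Each stayed on its side of 0 in all 4 tumours, although the 2 lie within the span of the same gene. Probe 6 and the Foxa2 probe were the 2 of the 32 that read 0.2 or higher in every tumour, against a background of 10.1% of autosomal probes. Probe 11 and probe 5 of Nr1h4 were the 2 that read -0.5 or lower in every tumour, against 3.21%. Without probe 11 the gene averaged 0.24 ± 0.14.

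**Figure D2:**
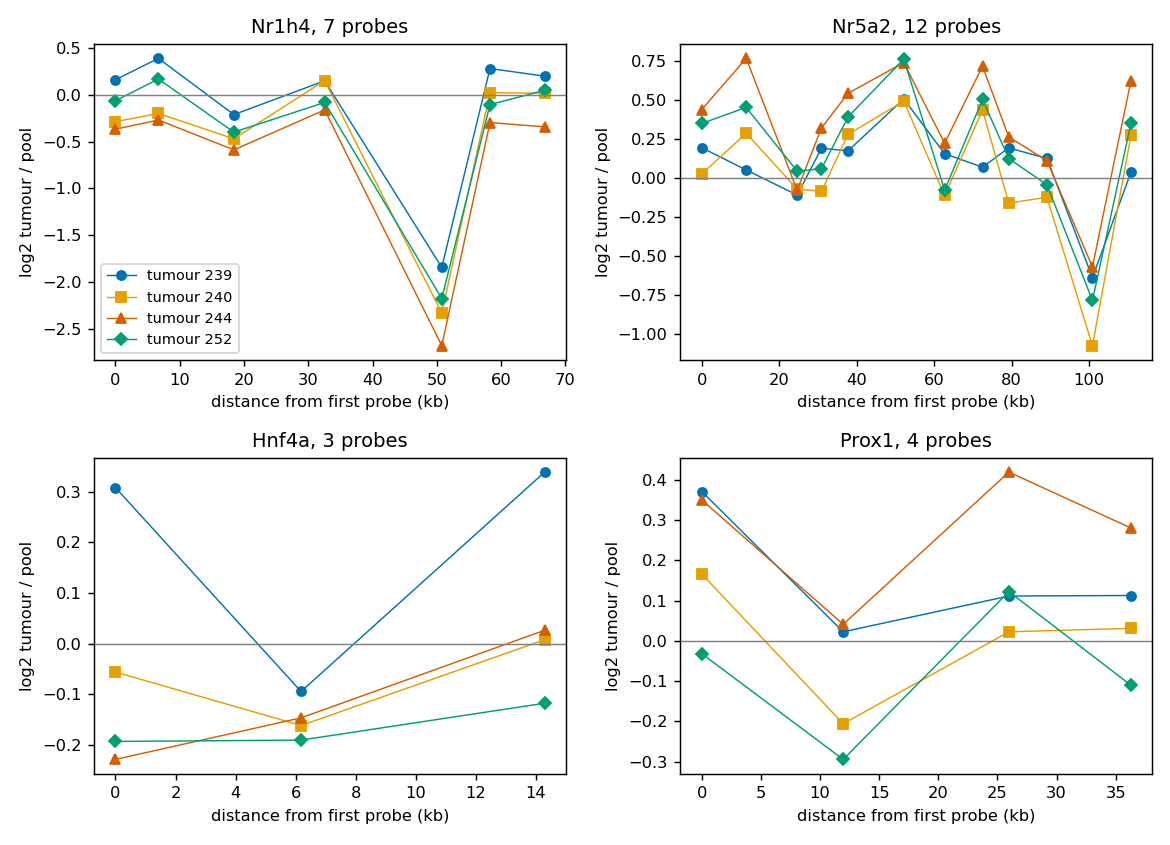
Log2 ratio of tumour over pool for each probe of Nr1h4, Nr5a2, Hnf4a and Prox1 against the distance from the first probe of the gene in kb, 1 line per tumour. The 4 lines share a low probe in Nr1h4 and in Nr5a2, at a mean of -2.26 and of -0.77. Along Nr5a2 the line of tumour 239 departs from the others. At probes 2, 8 and 12 it reads 0.05, 0.07 and 0.04, where the other tumours read 0.27 to 0.77.

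Cebpa, whose product is a regulator of hepatic metabolism, had 165 surrounding probes on chromosome 7 at -0.01, 0.06, -0.20 and 0.01 in tumours 239, 240, 244 and 252. Tumour 244 was again the low one, at -0.198, just inside the limit. The mean was -0.04 ± 0.11 (limma adjusted p = 0.696). The single probe of the gene (chr7:35906392-35906450) gave 0.38, 0.15, -0.21 and 0.17, in which tumour 244 alone was below 0. The neighbours Pepd (-0.08 ± 0.13) and Gpatch1 (0.05 ± 0.15) were not called.

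Onecut1, on chromosome 9, had 156 surrounding probes at -0.02, 0.01, -0.22 and -0.10 in tumours 239, 240, 244 and 252, a mean of -0.08 ± 0.10 (limma adjusted p = 0.306). Its own probes averaged 0.10, -0.16, -0.33 and -0.18, but the 2 probes disagreed. They are printed because their average hides that disagreement.
Onecut1 probe 1, chr9:74717817-74717876: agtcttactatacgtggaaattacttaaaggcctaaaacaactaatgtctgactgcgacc
Onecut1 probe 2, chr9:74725268-74725327: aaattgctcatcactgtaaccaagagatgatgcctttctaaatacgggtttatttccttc
Probe 1 read -0.03, -0.51, -0.79 and -0.71, whereas probe 2, which starts 7.45 kb further along, read 0.23, 0.20, 0.13 and 0.34. The ranges of the 2 probes did not overlap, and the order of the tumours differed between them. Wdr72, the nearest gene at lower coordinates, was at -0.24 ± 0.15 on 17 probes (limma adjusted p = 0.0383), and Fam214a on the other side was at 0.11 ± 0.11.

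Prox1 lies on chromosome 1, 53.2 Mb from Nr5a2. Its 131 surrounding probes averaged 0.07, 0.05, 0.29 and 0.09 in tumours 239, 240, 244 and 252, a mean of 0.13 ± 0.11 (limma adjusted p = 0.172). Every tumour was above 0, and tumour 244 stood apart as the only one past 0.2. With centring on the running median its value was below 0.2. The 4 probes of the gene averaged 0.15, 0.00, 0.27 and -0.08, so that tumours 244 and 252 were the ends of the range. The neighbour ENSMUST00000110279 was at 0.29 ± 0.08 on 3 probes (limma adjusted p = 0.00982), and Smyd2 on the other side was at 0.03 ± 0.09.

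**Figure D3:**
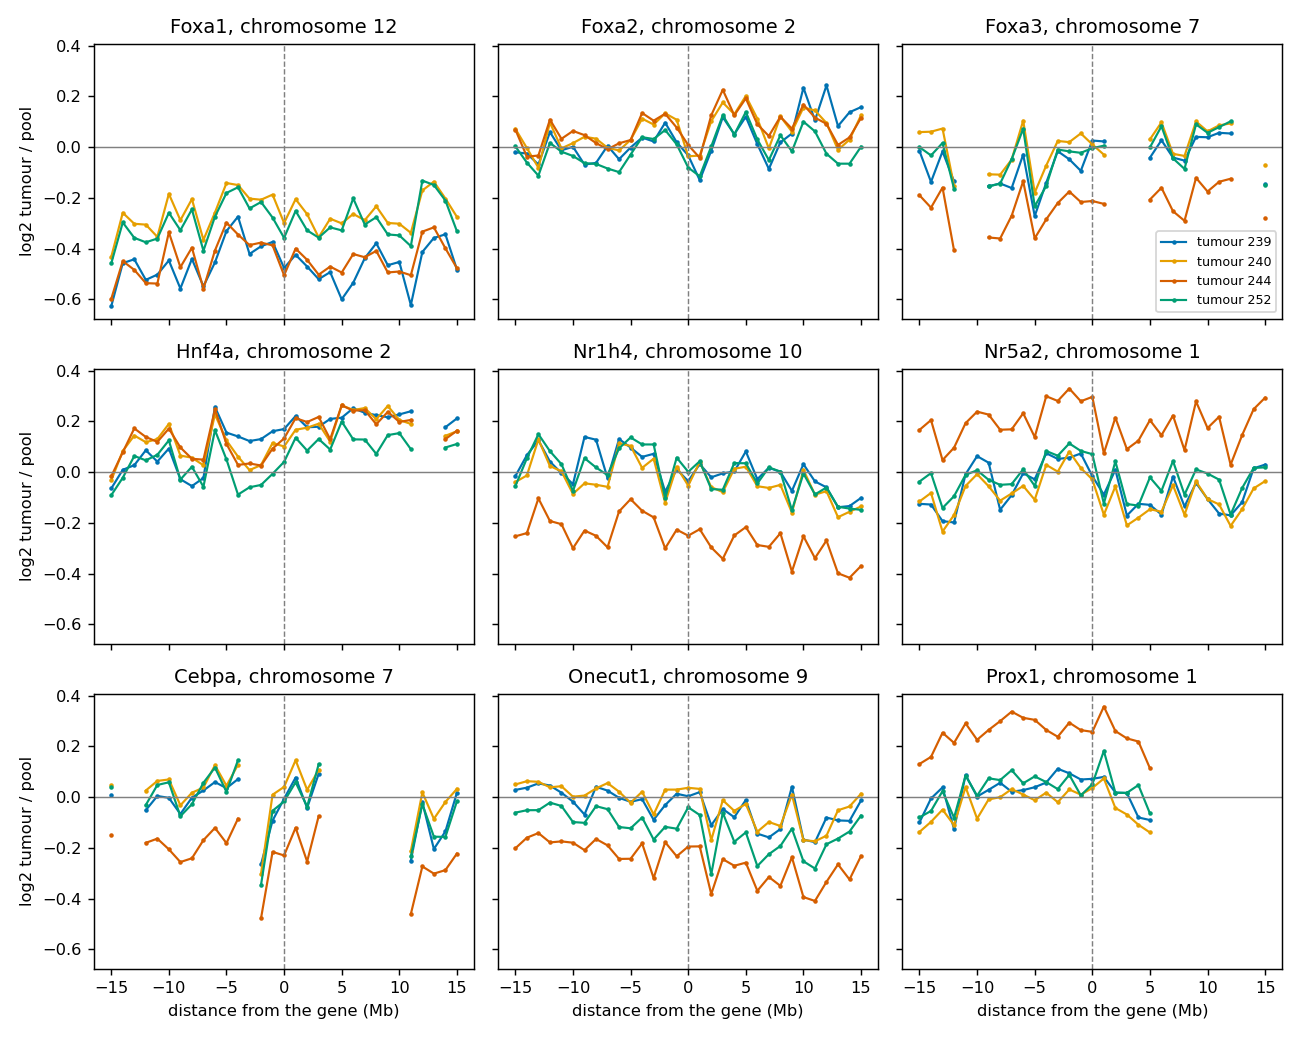
Mean log2 ratio of tumour over pool in steps of 1 Mb, up to 15 Mb on either side of each of the 9 genes, 1 line per tumour, with gaps where a step held fewer than 5 probes. Around Foxa1 all steps of all tumours lie below 0, between -0.63 and -0.13, whereas around Hnf4a they lie between -0.09 and 0.26.

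The levels of tumour 244 near 6 of the genes were also those of their chromosomes. Its average over all probes of chromosome 1, which holds Nr5a2 and Prox1, was 0.21. On chromosomes 7 (Foxa3 and Cebpa), 9 (Onecut1) and 10 (Nr1h4) it was -0.23, -0.23 and -0.25. The other 3 tumours had averages between -0.09 and 0.00 on these 4 chromosomes.

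Genes on the same chromosome were compared with each other on their surrounding probes by an exact two-sided sign-flip test, in which 4 tumours cannot give a p below 0.125. Hnf4a was above Foxa2, 15.5 Mb away, by 0.13 ± 0.06, in 4 of 4 tumours (exact p = 0.125, 0.188 after Benjamini-Hochberg adjustment over the 3 pairs). Nr5a2 was below Prox1 in 4 of 4 tumours, with a difference of -0.08 ± 0.02 (exact p = 0.125, adjusted 0.188). Cebpa and Foxa3, 16.3 Mb apart, differed by between -0.04 and 0.05 (exact p = 1).

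Read by name alone, 2 of the 9 genes were called by limma: Foxa2 above 0 and Nr1h4 below 0. Over all genes 32.7% were called on their own probes, 17.6% above and 15.1% below 0, and among genes with 1 probe 43.1%. On the difference of own and surrounding probes 5 of the 9 were called, Foxa1, Foxa2 and Nr5a2 above and Hnf4a and Nr1h4 below, against a background of 47.7% of all genes (25.3% above and 22.4% below) and of 55.8% of genes with 1 probe. Without tumour 252 the counts were 2 on own probes (25.9% of all genes) and 3 on the difference (31.5%). There was then no call on surrounding probes, where 2 of the 9 had an unadjusted limma p under 0.05, against 21.4% of all genes. Without tumour 244 the counts were 2 on own probes (26.8% of all genes), 1 on surrounding probes (23.0%) and 3 on the difference (30.2%). After subtracting the surrounding mean, the values of the 32 probes correlated between any 2 tumours with a Pearson r of 0.87 to 0.97. What lies behind this likeness was not tested. Once the low Nr1h4 probe was left out, r was 0.63 to 0.71 between tumour 239 and each other tumour. Among tumours 240, 244 and 252 it was then 0.90 to 0.92. All 4 ratios share the same pool, so this correlation is a description across probes and not of independent samples. The GC content of the 32 probes ran from 33.3% to 40.0%, with a median of 36.7%, the same as for all probes.

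Departures of a probe that are equal on all arrays drop out when a tumour is set against the mean of the other 3. In tumour 244 this contrast had the same sign on own and surrounding probes for 7 of the 9 genes. Prox1 stood above the other tumours by 0.25 on its own probes and by 0.22 on its surrounding probes, and Nr5a2 by 0.25 and 0.24. Cebpa stood at -0.44 on its own probe and -0.22 on its surrounding probes, Foxa3 at -0.41 and -0.22, Nr1h4 at -0.36 and -0.23, and Onecut1 at -0.25 and -0.18. Foxa1 was at -0.28 and -0.11. The 2 genes with unlike signs, Hnf4a (-0.10 and 0.02) and Foxa2 (-0.03 and 0.05), had small values. Among the 36 contrasts Pearson's r between own and surrounding probes was 0.75, and within tumours 239, 240, 244 and 252 it was 0.84, 0.81, 0.98 and 0.76 over 9 points each, which share 1 array.

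On own probes of tumour 239, 6 of the 9 genes stood at 0.2 or more above the other tumours, against 12.5% of all genes: Hnf4a (0.30), Foxa2 (0.29), Foxa3 (0.31), Cebpa (0.34), Onecut1 (0.32) and Nr1h4 (0.37). On surrounding probes the contrasts of the 9 genes in that tumour lay between -0.10 and 0.08, with the same sign as on own probes for 7 of the 9. Foxa2, Foxa3 and Cebpa were read from 1 probe each and Onecut1 from 2, whereas the 12.5% covers genes with any number of probes. Tumour 239 was also the array whose pattern over single probes was least like the others (Pearson r of 0.63 to 0.71 without the low Nr1h4 probe). The cause was not tested. In tumour 244, 2 genes stood at 0.2 or more, against 17.9%, and 5 at -0.2 or less, against 26.4%. In tumour 252, 2 genes stood at -0.2 or less, Foxa2 (-0.34) and Prox1 (-0.22), against 6.29%.

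**Figure D4:**
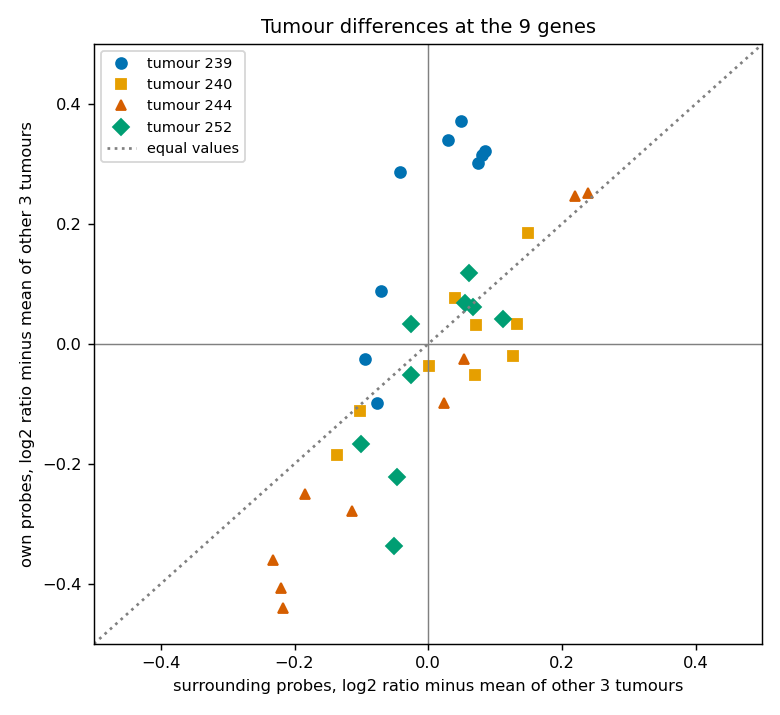
Contrast of each tumour with the mean of the other 3 for the 9 genes, on surrounding probes (horizontal axis) and on own probes (vertical axis), both in log2 units, with a dotted line of equal values. Tumour 244 reaches from -0.44 to 0.25 on own probes, and 6 points of tumour 239 lie above 0.2 on own probes at surrounding contrasts between -0.04 and 0.08.

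Genes that work with the 9 factors were read in the same way. Of 30 partner factors, 25 had probes. On their surrounding probes 2 were called above 0 and 1 below 0, against backgrounds of 5.41% and 3.74% of all genes, and their median was 0.03, against 0.02 over all genes. Ppara, the receptor for fatty acids that drives their oxidation, averaged 0.29, 0.22, 0.43 and 0.34 on 169 surrounding probes of chromosome 15 in tumours 239, 240, 244 and 252, a mean of 0.32 ± 0.09 (limma adjusted p = 0.0217). It was past 0.2 in 4 of 4 tumours, while its own 6 probes averaged -0.07 ± 0.05. The other 2 were Rxra (0.16 ± 0.03, limma adjusted p = 0.0317), the shared partner of FXR and other nuclear receptors, and Hnf4g (-0.19 ± 0.05, limma adjusted p = 0.0261), a relative of Hnf4a. Both were named after their values were seen.

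Of 26 liver target genes, 17 had probes, and on surrounding probes limma called 2 below 0 and none above 0, against the same backgrounds of 3.74% and 5.41%, with a median of -0.01. At an unadjusted p under 0.05, 2 of the 17 were above 0 and 4 below, against 27.7% of all genes in either direction. The 2 genes called below 0 by adjusted p, Slc10a1 and Apob, lie on chromosome 12, as Foxa1 does. Slc10a1, the bile acid uptake transporter NTCP, averaged -0.39, -0.20, -0.38 and -0.24 in tumours 239, 240, 244 and 252, a mean of -0.30 ± 0.10 (limma adjusted p = 0.0217). Apob, the structural protein of very low density lipoprotein, averaged -0.37, -0.18, -0.38 and -0.22, a mean of -0.29 ± 0.10 (limma adjusted p = 0.0221). In both, tumours 239 and 244 were the lowest and tumour 240 the highest, as in the chromosome 12 average. The own probes of both genes were also below 0, at -0.79 ± 0.21 on the 1 probe of Slc10a1 and -0.36 ± 0.13 on the 4 probes of Apob. None of the calls on these 2 lists held without tumour 239 or without tumour 252.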

How the data were processed

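Genomic DNA of 4 liver tumours and of the liver pool was labelled with Cy5 and Cy3, and per the file headers the arrays lay on 1 slide in 1 scan, without a dye swap. Per the file headers, processed intensities had been corrected for background and dye; the raw mean and background intensity columns served the normexp alternative. Per the file headers, log10 ratios of Cy5 over Cy3 were deposited, which the authors' value table repeats in log10 units. The submitters' processing notes name Agilent Feature Extraction 12.0.0; the file headers give version 12.0.1.1 and build mm9. Spot flags are 0 or 1, per the file headers.

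Control spots (6575 per array) and 95 to 120 outlier spots were dropped, repeat spots were averaged per probe, and log2 ratios of tumour to pool were centred on the autosomal median of 161460 probes, with no loess or quantile step. Own, surrounding (within 1 Mb, at least 5 probes) and difference values were tested against 0 over all genes by an intercept-only limma model (limma 3.58.1, R 4.3.3), with Benjamini-Hochberg adjustment at 0.05. The limma steps were also run on simulated data, in which gene means were removed and values shuffled among genes within each array. Departures of probes shared by the arrays were absent there, so the simulation cannot show how they affect the calls. With the pool as the only control, p-values leave out the spread of normal liver, and the 4 arrays limit precision. Other steps used Python 3.11.15, numpy 2.4.6, pandas 2.3.3, scipy 1.17.1 and statsmodels 0.14.6, with plots in matplotlib 3.10.9.

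The 9 genes and the partner and target lists were chosen with earlier results of these data known. Genes named are the 9, their nearest neighbours with at least 3 probes, and list genes past 0.2 in 3 or more tumours, at most 8 a list. Exon and intron positions were not used here. Alternatives covered centring, normexp, the value table, lowess on intensity, GC content, a probe filter, medians, windows of 250 kb and 5 Mb, thresholds of 0.1 and 0.3, robust limma and leaving out each tumour.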

Additional observations from a re-analysis of the deposited data

Results flagged for a closer look

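A tumour was taken as standing apart where its gap to the nearest other tumour, as a share of the range over the 4, passed the 95% critical value of Dixon's test. This held for 4 of 27 sets of values, and chance gives about 1 in 20. Tumour 244 stood apart from the other 3 on the surrounding probes of Foxa3, at -0.1996, and of Prox1, at 0.2908. It also stood apart in the difference of own and surrounding probes of Foxa1, at 0.2226, below the other 3. Tumour 239 stood apart in that difference for Nr1h4, at -0.093, above the other 3.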

How the results depend on the processing

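Under the alternatives, 337 values of single genes kept their direction and their side of the threshold, 17 lost their call, 7 gained one and 26 changed sign, 20 of them called under neither setting. With normexp these were Hnf4a (0.25), Foxa1 (0.33), Cebpa (-0.011) and Onecut1 (0.044) on own probes, Nr5a2 (-0.034) on surrounding probes, and Hnf4a (0.19), Onecut1 (0.18) and Prox1 (0.37) on the difference of own and surrounding probes. With lowess on intensity they were Hnf4a (0.071) and Foxa1 (0.16) on own probes and Onecut1 (0.068) and Prox1 (0.11) on the difference. With the running-median centring it was Foxa3 (-0.0012) on its own probe. On surrounding probes Foxa2 turned to 0.00043 with the probe filter, 0.078 with the median over probes and 0.062 within 5 Mb, and the difference of Prox1 to 0.028 within 250 kb and 5.8e-05 within 5 Mb. With a tumour left out in turn, values spanned 0 for Foxa1 (-0.067 to 0.049) and Foxa3 (-0.048 to 0.13) on own probes, for Foxa2 (-0.017 to 0.0094), Foxa3 (-0.055 to 0.020), Cebpa (-0.068 to 0.019) and Nr5a2 (-0.0094 to 0.085) on surrounding probes, and for the difference of Prox1 (-0.078 to 0.0057). The cause was not tested. Of the 9 genes, 6 were called on own probes with normexp (42.9% of all genes) and 1 with the median over probes (31.0%), against 2 (32.7%); leaving out a tumour gave 1 to 2 (16.7% to 27.8%). On surrounding probes, leaving out a tumour gave 0 to 1 (0.0% to 23.0% of all genes), against 1 (9.16%). On the difference, 2 were called with the median over probes (42.1%), against 5 (47.7%), and 3 to 6 with a tumour left out (30.2% to 51.7%). Combinations past the threshold numbered 14 at 0.1 and 3 at 0.3, against 8 at 0.2, and 3 to 7 with a tumour left out. The shares of all genes at 0.1 and 0.3 are not given here. Without tumour 239 or 252, limma called 0 of 18699 genes on surrounding probes, while 3574 and 3998 had an unadjusted p under 0.05; without tumour 240 it called 964 and without tumour 244 it called 4292, against 1712. Centring on the most frequent level of a running median, an alternative chosen after seeing the data, called 833; it lowered the median of all genes by 0.11 in tumour 244, where the levels are relative to that choice. The GC correction was also chosen after seeing the data. On own probes without tumour 240, 3129 genes were called, against 6123; on the difference, 5915, 5646 and 5897 were called without tumours 240, 244 and 252, against 8922. On surrounding probes the partner list had 3 calls, 0 without tumour 239 or 252, 1 without tumour 240 and 5 without tumour 244; the target list had 2, with 0 without tumour 239 or 252. No paired analysis was possible because the tumours form 1 group and all were set against the same pool. All 32 probes were well above background.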
